A study of Homo sapiens with 10 samples.

Results

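The BCL2 family was followed through 10 of its genes in U2OS cells, a human osteosarcoma line. They were BBC3, PMAIP1, BMF, BCL2L11, BID, BAX, BAK1, BCL2, BCL2L1 and MCL1, taken by name from a table of read counts for 63187 genes. Each matched 1 Ensembl identifier, and all 10 passed the filter on low counts that left 17290 genes for testing. Total RNA was sequenced in 3 groups of 2 libraries: unheated cells with the control reagent (siCtrl, NHS), heat-shocked cells with the control reagent (siCtrl, HS), and heat-shocked cells with YTHDC1 knocked down (siYTHDC1, HS). They are called unheated controls, heated controls and heated knockdown cells here. YTHDC1 is a nuclear protein that reads m6A (N6-methyladenosine), a modified base of messenger RNA. The sample titles write sh where the descriptions write si, so the kind of RNA interference reagent is uncertain. The sources used here do not give the temperature or length of the heating, nor how many reagents were used per target. No unheated knockdown cells were among the samples, so the knockdown was compared in heated cells only. m6A itself was not analysed here.

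Proteins of the BCL2 family decide whether the outer mitochondrial membrane is breached in apoptosis. BAX and BAK1 are the effectors that form the pores, through which cytochrome c leaves to start the caspases. BCL2, BCL2L1 (which encodes BCL-xL) and MCL1 are the anti-apoptotic members that hold the effectors in check. BBC3 (PUMA), PMAIP1 (NOXA), BMF, BCL2L11 (BIM) and BID are BH3-only proteins. Of the domains shared in the family they carry only BH3, a short helix. It binds the anti-apoptotic members and in some cases activates the effectors directly. MCL1 and PMAIP1 are short-lived proteins, so their messenger RNA is only part of what sets their level. BCL2L1, BCL2L11 and MCL1 are each spliced into forms of different activity, and a count per gene does not tell these forms apart.

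The start regions of 4 of the 5 BH3-only genes are shown first, because these are the ones that moved most between unheated and heated controls within that class. The sequences are RefSeq's on GRCh38.p14, read 5′ to 3′ on the gene's strand, and end just before the RefSeq gene. BMF lies on chromosome 15 (chr15:40108880-40109129, minus strand), BCL2L11 on chromosome 2 (chr2:111120664-111120913, plus strand), BID on chromosome 22 (chr22:17774666-17774915, minus strand) and BBC3 on chromosome 19 (chr19:47232861-47232917, minus strand, only the 57 bases of its RefSeq window that lie outside the gene). Capitals mark 1 motif chosen for each gene, GAANNTTC in BMF, GGGCGG in BCL2L11, TTCNNGAA in BID and CACGTG in BBC3. Matches of other searched motifs in these stretches, such as GGGCGG in BMF, are left unmarked.
BMF: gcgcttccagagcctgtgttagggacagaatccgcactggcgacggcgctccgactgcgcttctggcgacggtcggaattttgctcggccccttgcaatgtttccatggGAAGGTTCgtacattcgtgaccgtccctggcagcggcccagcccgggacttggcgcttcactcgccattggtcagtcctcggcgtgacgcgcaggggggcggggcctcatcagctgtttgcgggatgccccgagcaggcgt
BCL2L11: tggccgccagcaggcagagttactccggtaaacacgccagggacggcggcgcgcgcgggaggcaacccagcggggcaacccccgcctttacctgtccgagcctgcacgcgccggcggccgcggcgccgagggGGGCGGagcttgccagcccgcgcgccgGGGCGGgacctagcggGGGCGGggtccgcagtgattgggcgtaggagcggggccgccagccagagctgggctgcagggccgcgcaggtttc
BID: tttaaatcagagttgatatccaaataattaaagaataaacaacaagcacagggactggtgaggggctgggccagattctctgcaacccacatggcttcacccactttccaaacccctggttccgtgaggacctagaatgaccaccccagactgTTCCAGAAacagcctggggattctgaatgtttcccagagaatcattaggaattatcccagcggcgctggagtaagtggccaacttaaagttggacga
BBC3: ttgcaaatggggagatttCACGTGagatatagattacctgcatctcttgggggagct
GAANNTTC and TTCNNGAA are paired forms of the GAA unit that HSF1, the main heat shock transcription factor, binds in repeats, and they may overlap each other. CACGTG is an E-box and GGGCGG a GC box. Both strands were searched in windows of 250 bases before and 50 bases from a start site, of which RefSeq gave 15 for 9 of the 10 members and none for MCL1. Shares are per window, and windows of 1 gene can overlap. GAANNTTC stood in 2 of the 15 windows, from BMF (at position -141) and BAK1 (at -226), and in 6.77% of all 35116 windows. TTCNNGAA stood in 1 of the 15, from BID (at -97), and in 7.74% of all windows. BID had 5 windows, and only the most upstream of them, the one printed above, held this motif. CACGTG stood in 4 of the 15, from BBC3, BID and BAX, which held 4 copies in 1 window, and in 7.26% of all windows. GGGCGG stood in 10 of the 15, from 7 members, and in 45.0% of all windows. CCAAT stood in 5 of the 15 and in 34.6% of all windows. A half-site of the p53 motif stood in 1 of the 15, from BAK1, and in 6.63% of all windows. These are matches of letters and do not show that a factor was bound. Sites outside these windows, or with other letters, were not searched, so a missing match does not show that a gene lacks a site.

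The libraries held between 13252370 and 15500743 counts. Levels are given as CPM, read counts per 1000000 of the tested genes after TMM scaling. YTHDC1 stood at 268 and 258 CPM in heated controls and at 121 and 118 CPM in heated knockdown cells, 45.4% of the heated control level (edgeR adjusted p = 2.66e-15). HSPA1A, the inducible HSP70, had 52.5 and 49.5 CPM without heating against no less than 4479 CPM in each of the 4 heated libraries, though its reads cannot be told apart with certainty from those of its copy HSPA1B. Of 8 markers of mesenchymal and bone tumour cells, VIM, COL1A1, SPARC and FN1 each averaged 932 CPM or more in every group, and TWIST1 was at 0 throughout. In unheated controls, heated controls and heated knockdown cells, VIM averaged 1677, 1591 and 1145 CPM and SPARC 1218, 1323 and 932. In this order COL1A1 averaged 1328, 1395 and 1863 CPM and FN1 1181, 1092 and 1618. CDH2 averaged 145, 161 and 296 CPM, RUNX2 21.3, 13.8 and 21.4, and COL1A2 0.413, 0.382 and 2.24. Of 8 blood markers 3 were at 0 in all libraries, CD3E and HBB among them. The sum, mostly LCP1, ran from 15.96 to 16.38 CPM in unheated controls, 19.1 to 23.5 CPM in heated controls and 5.35 to 7.03 CPM in heated knockdown cells. LCP1 averaged 15.6, 16.7 and 4.20 CPM in the same order. HBA2 was at 0 in unheated controls and at 1.08 and 6.31 CPM in heated controls. The summed level of 7 epithelial markers, with CLDN3 at 0, ran from 54.4 to 57.6 CPM unheated and 71.1 to 79.3 CPM in heated controls. In heated knockdown cells it ran from 92.1 to 98.2 CPM. These markers did not move together. In the same order of groups, CLDN4 averaged 43.2, 64.5 and 57.7 CPM, EPCAM 5.41, 5.44 and 20.3, and KRT14 4.07, 3.08 and 11.1. CDH1 averaged 1.56, 1.22 and 4.41 CPM and KRT5 1.59, 0.704 and 1.47. The part of these marker levels in the results that follow was not tested. In bulk RNA, fewer cells with a transcript and less of it per cell cannot be told apart.

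Per deposited gene length, PMAIP1 was the most abundant member in unheated controls and BCL2 the least. Levels between genes are compared as RPKM, the CPM per kilobase of the gene length deposited with the counts. In unheated controls the mean over 2 libraries was 65.1 ± 1.88 RPKM (SD) for PMAIP1, 43.9 ± 0.397 for MCL1, 40.2 ± 0.925 for BCL2L1, 30.4 ± 0.318 for BAX and 13.2 ± 0.358 for BAK1. These levels were followed by 7.99 ± 0.207 RPKM for BBC3, 7.31 ± 1.03 for BID, 6.66 ± 0.434 for BCL2L11, 2.81 ± 0.127 for BMF and 0.495 ± 0.0778 for BCL2. Only BBC3 and BID, and BID and BCL2L11, were neighbours in this order whose libraries overlapped. After heating MCL1 stood first (86.6 ± 0.573 RPKM) and PMAIP1 second (71.9 ± 0.928), while BMF (0.663 ± 0.1) had come down to the level of BCL2 (0.639 ± 0.0277), with overlapping libraries. In heated knockdown cells the order from MCL1 down to BBC3 was that of heated controls, and BCL2 (0.945 ± 0.0985 RPKM) and BMF (0.796 ± 0.139) again overlapped. For MCL1 the deposited length of 6222 bases exceeds the whole RefSeq gene of 5053 bases, so its RPKM would be higher on the RefSeq length. Its place behind PMAIP1 in unheated controls therefore rests on the deposited lengths and is uncertain.

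Heat shock moved the family in both directions. Against unheated controls, 3 members rose in heated controls (MCL1, BID and PMAIP1) and 5 fell (BBC3, BMF, BCL2L11, BAX and BCL2L1), while BAK1 and BCL2 did not pass. That is 8 of 10, where 43.9% of all tested genes passed, 20.6% higher and 23.3% lower. The median log2 fold change was -0.18 over the members and -0.03 over all tested genes. Scaling by library size alone moved the share of higher genes among all called from 46.9% to 36.5%, and of the members PMAIP1 was then not called and BAK1 was called lower. Knockdown in heated cells raised BBC3, BCL2 and MCL1 and lowered BID and BCL2L1, which is 5 of 10 where 54.5% of all tested genes passed, 27.4% higher and 27.2% lower. That share is near the background. The comparisons use the same heated controls, so a heated control level that is off by chance moves both, in opposite directions. p-values are edgeR's quasi-likelihood test with Benjamini-Hochberg adjustment over the 17290 genes. They rest on the spread between these libraries, which the labels do not say came from separate cultures. The test moderates each gene's spread with that of the other genes. The p-values, SEs and intervals are therefore not measured from a gene's own 2 libraries a group alone.

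**Figure D1:**
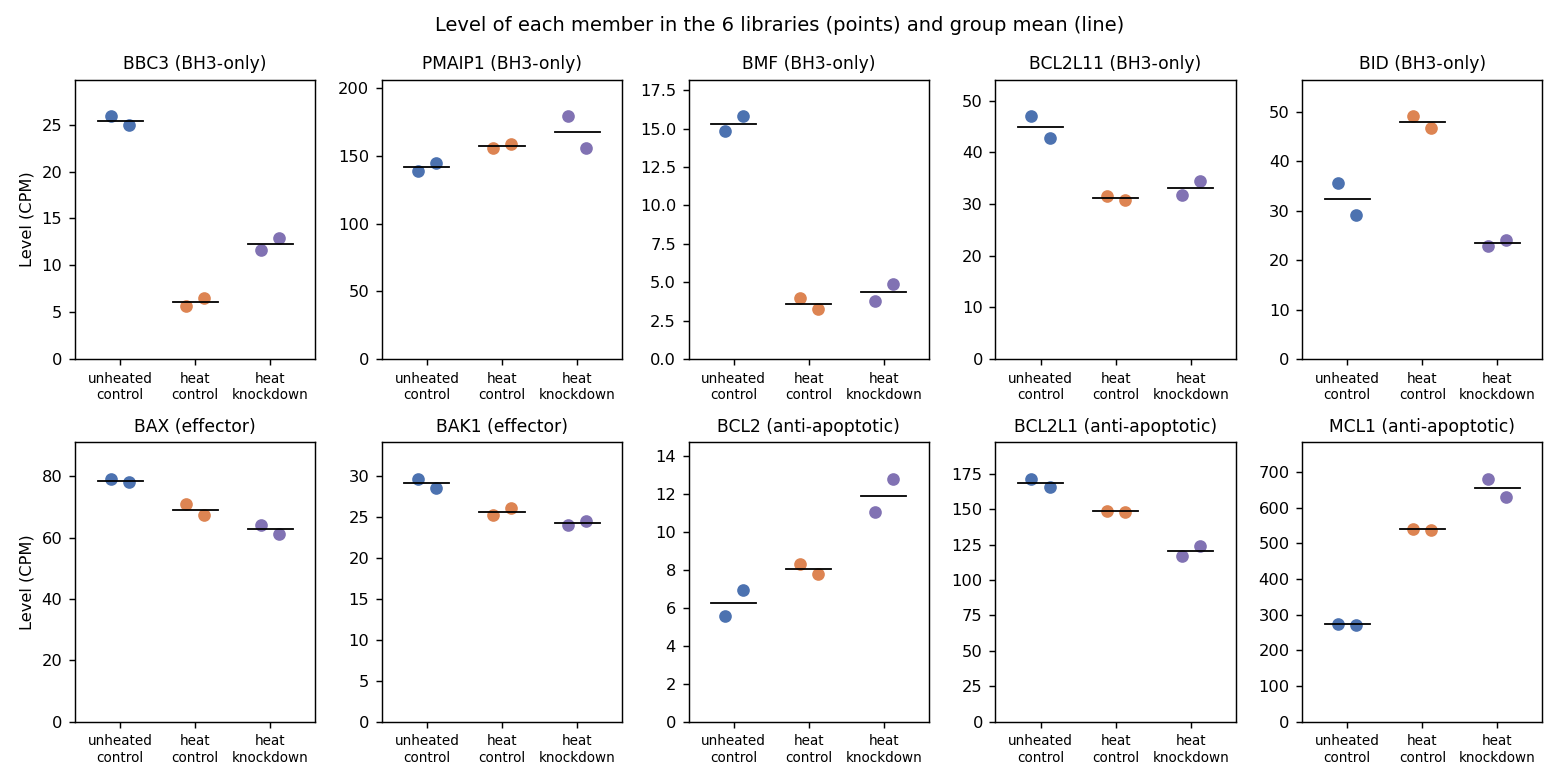
Level of each member in CPM (vertical axis from 0, scaled to each gene) in the 2 libraries of each of 3 groups (points) with the group mean (line). BBC3 and BMF drop from unheated to heated controls, MCL1 climbs, and BID is highest in heated controls.

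Among BH3-only genes, BBC3 and BMF had the largest falls with heat, and BBC3 was in part higher again in the knockdown. BBC3 (ENSG00000105327, chromosome 19, 47220824 to 47232860 on GRCh38.p14), a potent promoter of apoptosis, was at 25.92 and 24.99 CPM unheated, 5.61 and 6.52 CPM in heated controls, and 11.7 and 12.9 CPM in heated knockdown cells. The 3 groups did not overlap, and the knockdown lay between the others. With heat BBC3 fell 4.18-fold (log2 fold change -2.06 ± 0.12, where ± is the SE, with 2 libraries a group; edgeR adjusted p = 1.07e-12), the 61st lowest value among 17290 genes. The knockdown raised it 2.02-fold (log2 fold change 1.02 ± 0.14, edgeR adjusted p = 1.16e-06), to 48.4% of the unheated level, still below unheated controls (log2 fold change -1.05 ± 0.11, edgeR adjusted p = 7.61e-09). The microRNA genes MIR3190 and MIR3191, which lie within BBC3, had no counts in any library.

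BMF (ENSG00000104081, chromosome 15, 40087890 to 40108879), whose protein is held by the dynein light chains until it is released to bind BCL2 proteins, was at 14.8 and 15.8 CPM unheated, 4.0 and 3.2 CPM in heated controls, and 3.80 and 4.87 CPM in heated knockdown cells. Both heated groups lay far below the unheated one and overlapped each other. The fall with heat was 4.24-fold (log2 fold change -2.09 ± 0.16, edgeR adjusted p = 1.39e-10), the 58th lowest value among all genes tested. BMF rested on 45 to 70 counts in each heated library. The knockdown was not called against heated controls (log2 fold change 0.27, 95% interval -0.15 to 0.68, edgeR adjusted p = 0.272), and an increase as large as that of BBC3 lies outside this interval. Whether the knockdown response of BBC3 differed from that of BMF was not tested.

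BCL2L11 (ENSG00000153094, chromosome 2, 111120914 to 111168445), an activator of BAX and BAK1, was at 47.0 and 42.9 CPM unheated, 31.5 and 30.7 CPM in heated controls, and 31.7 and 34.4 CPM in heated knockdown cells. It fell with heat by a smaller step than BBC3 or BMF (log2 fold change -0.53 ± 0.08, edgeR adjusted p = 3.93e-06), to 69.2% of the unheated level. The knockdown libraries lay just above both heated controls, a difference that was not called (log2 fold change 0.09, 95% interval -0.08 to 0.25, edgeR adjusted p = 0.38).

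BID was higher with heat and lower in the knockdown. BID (ENSG00000015475, chromosome 22, 17734138 to 17774665), which links death receptors to mitochondria after it is cut by caspase-8, was at 35.5 and 29.1 CPM unheated, 49.1 and 46.7 CPM in heated controls, and 22.9 and 24.0 CPM in heated knockdown cells. Every heated control library was above, and every knockdown library below, both unheated ones. BID rose 1.48-fold with heat (log2 fold change 0.57 ± 0.08, edgeR adjusted p = 4.75e-06). The knockdown lowered it 2.04-fold (log2 fold change -1.03 ± 0.09, edgeR adjusted p = 6.70e-10), the largest fall among the 10 members in that comparison. Against unheated controls BID was also lower in heated knockdown cells (log2 fold change -0.46 ± 0.09, edgeR adjusted p = 1.19e-04). MIR3198-1, which lies within BID, had at most 0.287 CPM.

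PMAIP1 (ENSG00000141682, chromosome 18, 59899996 to 59904305), whose protein binds MCL1 and promotes its breakdown, changed least with heat among the 5 BH3-only genes. It was at 139 and 145 CPM unheated, 156 and 159 CPM in heated controls, and 180 and 156 CPM in heated knockdown cells. The 1.11-fold rise with heat only just passed (log2 fold change 0.14 ± 0.06, edgeR adjusted p = 0.0398), and the call was lost in 7 of 14 alternative settings, with adjusted p up to 0.293. The knockdown libraries lay on both sides of the second heated control (log2 fold change 0.09, 95% interval -0.02 to 0.21, edgeR adjusted p = 0.159). This difference rested on which knockdown library was used: it was called without replicate 2 (log2 fold change 0.19, edgeR adjusted p = 6.83e-04) and was at -0.01 without replicate 1 (adjusted p = 0.852). Against unheated controls PMAIP1 rose in heated knockdown cells (log2 fold change 0.24 ± 0.06, edgeR adjusted p = 6.75e-04), and this was 0.13 without knockdown replicate 1.

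The effectors among the members, BAX and BAK1, differed little between groups. BAX (ENSG00000087088, chromosome 19, 48954875 to 48961798) was at 79.2 and 78.0 CPM unheated, 70.8 and 67.4 CPM in heated controls, and 64.2 and 61.3 CPM in heated knockdown cells. Its libraries stepped down from group to group without overlap. BAX fell to 88.0% with heat (log2 fold change -0.19 ± 0.06, edgeR adjusted p = 0.0106), a call lost with the DESeq2 Wald test (adjusted p = 0.132) and without unheated replicate 1 (0.0811) or heated control replicate 2 (0.117). In the knockdown it just missed the threshold (log2 fold change -0.14, 95% interval -0.26 to -0.02, edgeR adjusted p = 0.051). The intervals are not adjusted for the number of genes, so they can exclude 0 where the adjusted p does not pass. In heated knockdown cells BAX stood at 79.9% of unheated controls (edgeR adjusted p = 3.13e-05).

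BAK1 (ENSG00000030110, chromosome 6, 33572552 to 33580276) was at 29.7 and 28.6 CPM unheated, 25.2 and 26.2 CPM in heated controls, and 24.1 and 24.5 CPM in heated knockdown cells. Neither step was called (log2 fold change -0.18, 95% interval -0.35 to -0.01, edgeR adjusted p = 0.0793 for heat; log2 fold change -0.08, 95% interval -0.26 to 0.10, adjusted p = 0.434 for the knockdown). Across both steps BAK1 was lower in heated knockdown cells than in unheated controls (log2 fold change -0.26 ± 0.08, edgeR adjusted p = 0.00779). That call was lost with the DESeq2 Wald test (adjusted p = 0.0904) and without unheated replicate 1 (0.0639).

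The anti-apoptotic genes split, with MCL1 and BCL2 higher and BCL2L1 lower in heated knockdown cells than in unheated controls. MCL1 (ENSG00000143384, chromosome 1, 150574558 to 150579610) was at 275 and 272 CPM unheated, 541 and 536 CPM in heated controls, and 681 and 630 CPM in heated knockdown cells. The groups did not overlap, and the step with heat was far larger than the spread of either control group. The knockdown libraries differed from each other by more than those of either control group. MCL1 rose 1.97-fold with heat (log2 fold change 0.98 ± 0.05, edgeR adjusted p = 1.18e-14), the largest rise among the 10 members. The knockdown raised it a further 1.22-fold (log2 fold change 0.28 ± 0.04, edgeR adjusted p = 1.03e-05), so that it stood 2.40-fold above unheated controls (edgeR adjusted p = 5.41e-17). With 4228 to 9676 counts per library, MCL1 was also the most deeply counted member.

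BCL2 (ENSG00000171791, chromosome 18, 63123346 to 63320090), the founding member of the family, was thinly expressed, with 88 to 184 counts per library. It was at 5.55 and 6.94 CPM unheated, 8.31 and 7.81 CPM in heated controls, and 11.1 and 12.8 CPM in heated knockdown cells. Its libraries stepped up from group to group without overlap. The difference with heat was not called (log2 fold change 0.37, 95% interval 0.04 to 0.69, edgeR adjusted p = 0.0633). It was called in 4 of 14 alternative settings, among them without unheated replicate 2 (0.53, adjusted p = 0.0427), and was at 0.21 without unheated replicate 1. The knockdown raised BCL2 1.48-fold (log2 fold change 0.57 ± 0.14, edgeR adjusted p = 0.00187), and heated knockdown cells had 1.91-fold the level of unheated controls (edgeR adjusted p = 6.36e-06).

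BCL2L1 (ENSG00000171552, chromosome 20, 31664452 to 31723963) was at 171 and 166 CPM unheated, 149 and 148 CPM in heated controls, and 117 and 124 CPM in heated knockdown cells. It went down at each step. With heat it fell to 88.1% (log2 fold change -0.18 ± 0.05, edgeR adjusted p = 0.00312), a call lost without unheated replicate 1 (adjusted p = 0.0627). The knockdown lowered it to 81.1% of heated controls (log2 fold change -0.30 ± 0.05, edgeR adjusted p = 1.56e-05), and to 71.4% of unheated controls (edgeR adjusted p = 6.05e-09). The antisense gene BCL2L1-AS1, which overlaps it, had no counts in any library. LOC124904883, which also overlaps BCL2L1, and LOC124904379, which overlaps BCL2, were not examined.

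**Figure D2:**
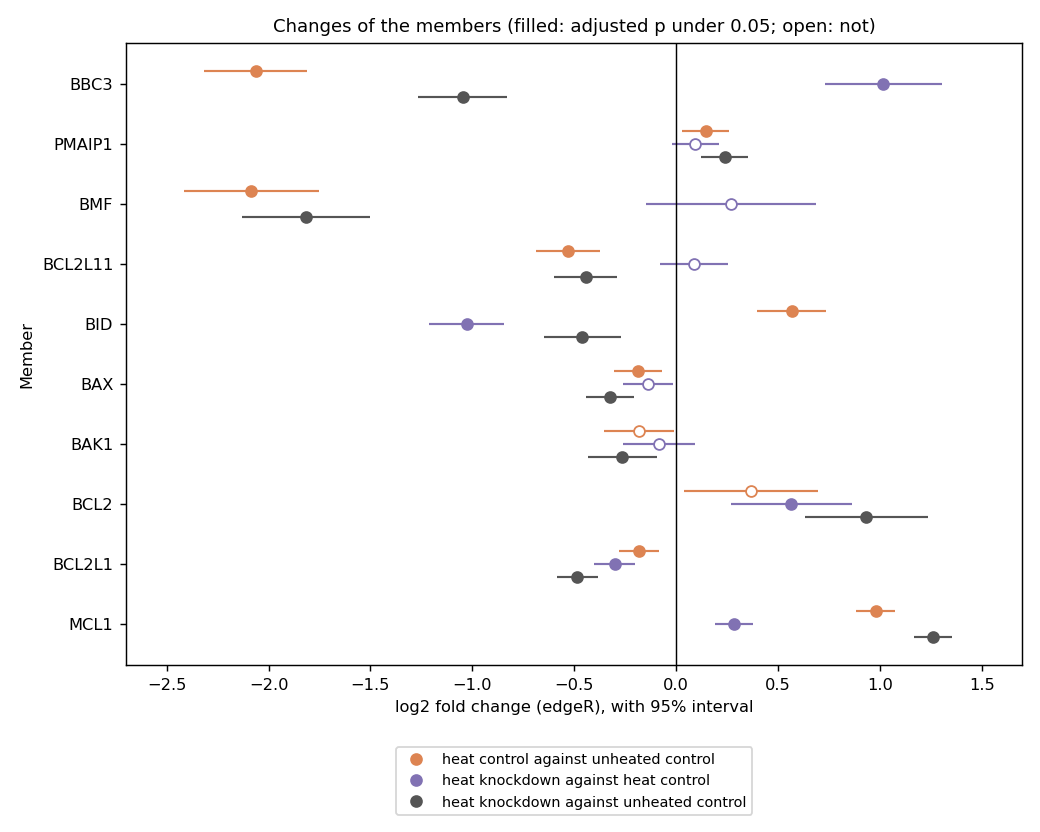
log2 fold change of each member (horizontal axis) with its 95% interval in the 3 comparisons, with filled points where the edgeR adjusted p passed. BBC3 is below 0 with heat and above 0 in the knockdown, BID the reverse, and BMF lies near -2 with heat while its knockdown interval spans 0.

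In heated knockdown cells set against unheated controls, where heating and knockdown differ together and cannot be told apart, all 10 members passed. MCL1, BCL2 and PMAIP1 were higher and BBC3, BMF, BCL2L11, BID, BAX, BAK1 and BCL2L1 lower, where 62.2% of all tested genes passed, 31.1% higher and 31.1% lower. The median log2 fold change was -0.38 over the members and 0.00 over all genes. The 2 groups did not overlap for any of the 10 members in this comparison, nor in heat shock, and did not overlap for 8 of 10 in the knockdown. Over all tested genes 80.1%, 72.2% and 75.9% did not overlap in these comparisons, so separation by itself says little in groups of 2. BMF stayed furthest down, at 28.4% of the unheated level (log2 fold change -1.82 ± 0.15, edgeR adjusted p = 2.68e-10), and BCL2L11 stood at 73.5% (edgeR adjusted p = 1.72e-05).

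Summed per length over the 10 members only, the anti-apoptotic genes gained on the others. The BH3-only sum moved by less than the knockdown libraries differed from each other, although 3 of its genes fell with heat. The RPKM of BCL2, BCL2L1 and MCL1 summed to 85.5 and 83.7 in unheated controls, 123 and 122 in heated controls, and 138 and 132 in heated knockdown cells. Their share of the 10 members' RPKM was 39.0% and 38.6%, then 49.0% and 48.8%, then 51.1% and 52.0%. MCL1 made up 51.7% and 52.2% of this sum in unheated controls, 70.7% and 70.6% in heated controls, and 79.2% and 76.8% in heated knockdown cells. BCL2 and BCL2L1 together went the other way, from 41.3 and 40.1 RPKM to 36.2 and 35.9 and then to 28.8 and 30.5.

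The 5 BH3-only genes summed to 89.6 and 90.1 RPKM in unheated controls, 89.5 and 90.3 in heated controls, and 96.4 and 86.9 in heated knockdown cells. PMAIP1 alone was 71.1% to 73.7% of that sum in unheated controls and 79.6% to 85.2% in the heated libraries. Without it the sum was 25.9 and 23.7 RPKM, then 18.3 and 17.8, then 14.3 and 15.5. BBC3, BMF and BCL2L11 together went from 17.8 and 17.1 RPKM in unheated controls to 7.17 and 7.19 in heated controls, and were at 9.06 and 10.1 in heated knockdown cells. The effectors summed to 44.0 and 43.1, then 38.8 and 37.9, then 35.7 and 34.8 RPKM. These sums weigh each gene by its messenger RNA and its deposited length and carry no test, and protein was not measured. They leave out other family genes. Among these, the pro-apoptotic BOK and BAD averaged 17.8 and 16.3 RPKM in unheated controls, and the anti-apoptotic BCL2L2 5.72 RPKM.

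**Figure D3:**
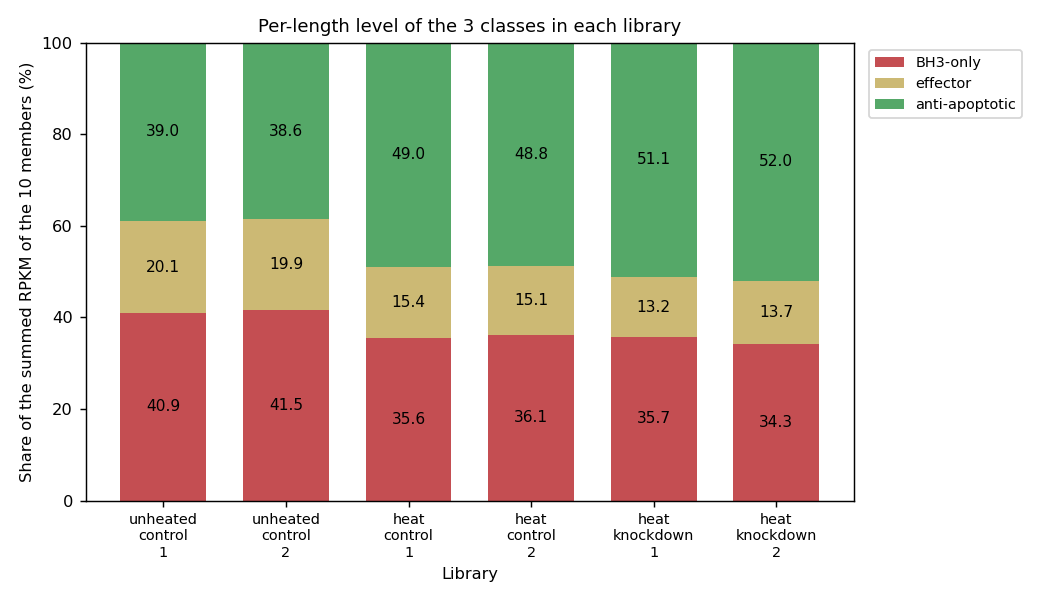
Share of the summed RPKM of the 10 members held by the BH3-only, effector and anti-apoptotic genes in each of the 6 libraries (stacked bars, in %). The anti-apoptotic share is 39.0% and 38.6% in unheated controls and between 48.8% and 52.0% in the heated libraries.

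Other genes of apoptosis were read from 7 lists, beside the background of 43.9% called with heat and 54.5% called in the knockdown. Of 8 further pro-apoptotic or BCL2-like genes tested of 10 listed, 2 rose and 3 fell with heat, with BOK, a BAX-like gene, at a log2 fold change of -0.41, BCL2L13, a mitochondrial member, at -0.29 and the mitophagy receptor BNIP3 at 0.21. In the knockdown 2 rose and 3 fell, and the 3 that fell were BCL2L13 at -0.64, BNIP3L at -0.60 and BNIP3 at -0.58. Of 3 further anti-apoptotic genes 2 were tested, and BCL2L2 (BCL-w) was at -0.32 with heat (edgeR adjusted p = 0.00569) and 0.25 in the knockdown (0.0244).

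The list of genes acting at and downstream of the mitochondria held 18 genes. DFFA, the inhibitor of the caspase-activated nuclease, rose by 0.77 on the log2 scale with heat, and ENDOG, a mitochondrial nuclease, was at -0.54. In that list 5 rose, 4 fell and 9 did not pass with heat. In the knockdown 7 rose, 5 fell and 6 did not pass, with CASP6 at -1.84, ENDOG at 1.37 and APAF1, the scaffold of the apoptosome, at 0.58. Among 6 inhibitor of apoptosis genes 2 rose with heat, BIRC3 (0.43) and BIRC2 (0.31). In the knockdown 3 fell and 1 rose, with BIRC3 from 216 ± 8.67 to 23.3 ± 2.61 CPM (SD over 2 libraries; log2 fold change -3.21 ± 0.07, edgeR adjusted p = 2.52e-21), BIRC2 at -0.86 and BIRC5 (survivin) at 0.47.

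A list named for the death receptor pathway, in which BID acts, also held PIDD1, CASP2 and CRADD beside the receptors and their adaptors. Of its 17 genes 13 were tested, and 3 were higher and 6 lower with heat. FADD, the adaptor that recruits caspase-8, fell from 47.1 ± 2.27 to 19.5 ± 0.497 CPM (SD over 2 libraries; log2 fold change -1.27 ± 0.08, edgeR adjusted p = 5.45e-12), RIPK1 by 0.58 and PIDD1 by 0.56 on the log2 scale. In the knockdown 3 rose and 7 fell, with CASP2, a caspase that can cut BID, at -1.22, TNFRSF1A, the TNF receptor, at -0.73 and CRADD at 0.86. Of 15 transcription factors tested that are known to act on BCL2 family genes, 5 rose, 5 fell and 5 did not pass with heat. DDIT3 (CHOP) rose by 1.27 on the log2 scale, while TP73 was at -0.78. In the knockdown 6 rose and 3 fell, with FOXO1 at 0.70, STAT3 at 0.64 and JUN at 0.52. Among 13 regulators of BCL2 family proteins 4 rose and 2 fell with heat, and 3 rose and 6 fell in the knockdown. DYNLL1, a dynein light chain, was at 0.67 with heat and -0.38 in the knockdown, MARCHF5, a mitochondrial ubiquitin ligase, at 0.34 and 0.47 in the same order, AKT1 at -0.34 with heat and MAPK9 at -0.37 in the knockdown.

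**Figure D4:**
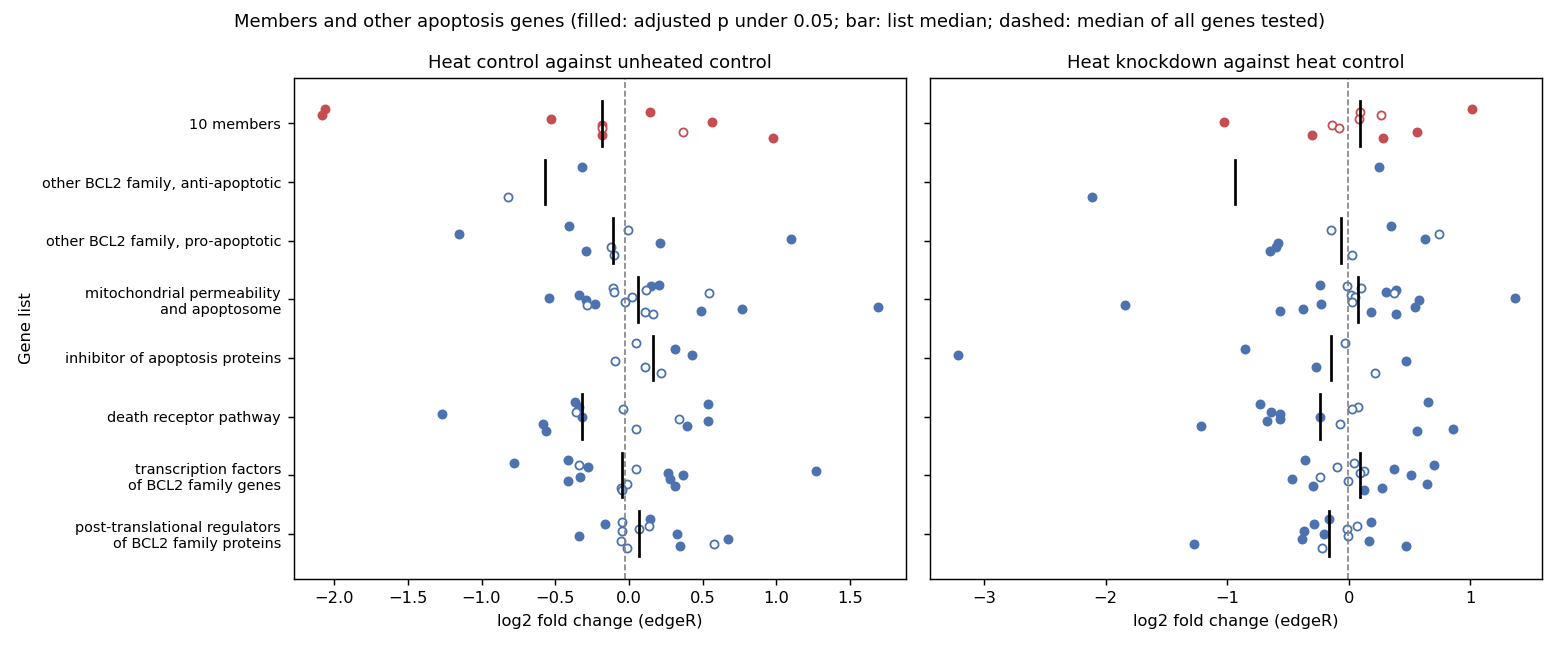
log2 fold change of the 10 members and of 7 lists of other apoptosis genes (rows) with heat (left) and knockdown (right), with filled points where the edgeR adjusted p passed, a bar at each list's median and a dashed line at the median of all genes tested. BBC3 and BMF are the 2 points at the far left of the heat panel, and BIRC3 is the leftmost point of the knockdown panel.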

How the data were processed

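Gene-level RNA-seq was analysed in 6 libraries of U2OS cells, 2 in each of 3 groups named by the sample titles, and 4 MeRIP-seq libraries were not analysed here. The deposited values are raw read counts per gene, made by the authors with tools that the submitters' processing notes list without role or order, among them HISAT2 2.2.1 and featureCounts 2.0.2 on GRCh38. The sources used here do not give the annotation, whether counting used strand, or how multimapping reads were handled, so counts of overlapping genes are uncertain. The gene length per the file headers served for RPKM only.

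Symbols were paired with 62666 of 63187 identifiers. The filter was edgeR's filterByExpr with a minimum count of 10. Libraries were scaled by TMM and tested in R 4.3.3 with the robust quasi-likelihood F test of edgeR 4.0.16. All 6 entered together, leaving 3 residual degrees of freedom, with Benjamini-Hochberg adjustment over 17290 genes and a threshold of 0.05. SE is the log2 fold change over the root of F. The test was checked on counts simulated from its own fitted spread, with far fewer changed genes than were called here. Such a check cannot show how well the p-values hold in these data. The 14 alternatives included DESeq2 1.42.0, other scalings and filters, the replicate number as a block and leaving out each library. Genes outside the family were named by rule: up to 3 per list with the largest change among called genes averaging 5 CPM or more. Some genes that this rule names are not reported here. The members and lists were chosen with earlier results of these data known. Gene positions and start regions are RefSeq's on GRCh38.p14, matched by symbol.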

Additional observations from a re-analysis of the deposited data

How the results depend on the processing

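No member changed direction in a comparison where it was called, in any of the 14 alternatives. The calls of BBC3, BMF, BCL2L11, BID and MCL1 with heat, and of BBC3, BID, BCL2, BCL2L1 and MCL1 in the knockdown, held in all 14. Left-out libraries gave 3 to 5 members lower with heat, 3 of them without unheated replicate 1. With the DESeq2 Wald test 2514 genes of the whole table were lower with heat, against 4033 in the edgeR test. BAX in the knockdown was called in 4 alternatives (adjusted p from 0.0284). Same-numbered libraries did not deviate together (correlations of -0.0288, -0.0608 and 0.0561 over 11574 genes), so the numbers were not taken as pairs. With the replicate block 3 members were higher and 5 lower with heat, 3 and 2 in the knockdown, and 3 and 7 in heated knockdown cells against unheated controls. Groups of 2 leave 3 residual degrees of freedom per gene, and the test adds to these by sharing the spread across genes. Depth limits BMF, BCL2 and BBC3 most among the members, and BBC3 rested on 73 and 91 counts in heated controls.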

Other observations

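HRK, BIK and BCL2A1 are further BCL2 family genes that were too low for the rule on named genes and are given here after their values were seen. HRK, a BH3-only gene best known from neurons, rose from 1.88 ± 0.0695 to 4.04 ± 0.271 CPM with heat and to 6.26 ± 0.395 CPM in the knockdown (SD, n = 2; edgeR adjusted p = 3.42e-04 and 0.00615). BIK was at 1.91 CPM in unheated and 0.848 CPM in heated controls (log2 fold change -1.16, edgeR adjusted p = 0.0108). BCL2A1, an anti-apoptotic NF-kB target, had 8 and 5 counts in heated controls and 2 and 1 in heated knockdown cells (edgeR adjusted p = 0.03), too few for a fold change to be given.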
